A study of Homo sapiens with 2 samples.

Results

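The regions described here are the narrowest peaks in a list of RNA recovered with YTHDF3 from KYSE30 cells, an established cell line derived from a human squamous carcinoma of the esophagus. They were chosen by span alone: every listed peak whose end lay at most 200 bases beyond its start was taken, whatever its gene name. This gave 354 of 18466 peaks (1.92%, 1.72 to 2.13, exact 95% interval), under 346 of the 9268 genes with a listed peak. The data are 1 library of RNA immunoprecipitated with YTHDF3 (RIP) and 1 input library of RNA without that enrichment, both from untreated cells grown with 10% fetal bovine serum. The cells carried no deletion or transgene named in the labels. No replicate of either library was at hand, so no difference was tested and every value below describes these 2 libraries. The authors' caller gave each peak its fold enrichment (RIP over input), p and adjusted p, with coordinates in hg38. Library totals were not used here, and the reads under a peak are unknown. Intervals cover counting error over peaks only. Of 10 squamous epithelium markers, 8 had a listed peak, TP63, SOX2 and KRT5 among them, against 3 of 9 immune markers, and none of those peaks was narrow.

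YTHDF3 is a cytoplasmic protein that recognises N6-methyladenosine (m6A), a methyl mark on adenosine in messenger RNA, through its YTH domain. It acts with its relatives YTHDF1 and YTHDF2 and has been linked to both translation and decay of marked transcripts. The mark sits in a short sequence context, of which GGAC followed by U is a frequent form, and it is known to be dense near stop codons and in 3' untranslated regions. A RIP peak marks a stretch of RNA recovered with the protein and does not locate the marked base.

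Sequence could be read only where a narrow peak fell in a RefSeq promoter window of GRCh38.p14, which runs from 250 bases before to 50 after a start of the gene on the gene's strand. Some genes have a window at a start inside the gene. Of the 354 peaks, 42 touched a window of their own gene, among them ERMP1 and EPS8L2 at internal starts 41.3% and 67.1% along the gene, 8 lay wholly inside one, and 5 of these 8 ended before the annotated start. Those 4 of the 5 that overlap no other protein-coding gene are printed whole because they show RNA listed as a gene's peak that lies entirely upstream of that gene's RefSeq start. They belong to SRP72, a protein of the signal recognition particle, AATF, which takes part in ribosome assembly, SLC25A3, the phosphate carrier of mitochondria, and MLF2, myeloid leukemia factor 2. The SRP72 stretch overlaps the noncoding RNA gene LOC124900706, and the other 3 overlap no gene of the reference. Capitals mark GGACT, the DNA letters of the frequent m6A context.
SRP72: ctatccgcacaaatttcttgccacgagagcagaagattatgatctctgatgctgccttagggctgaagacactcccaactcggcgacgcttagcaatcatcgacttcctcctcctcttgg
AATF: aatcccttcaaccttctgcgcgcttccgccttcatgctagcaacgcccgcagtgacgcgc
SLC25A3: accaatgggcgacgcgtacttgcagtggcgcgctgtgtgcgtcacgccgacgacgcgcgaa
MLF2: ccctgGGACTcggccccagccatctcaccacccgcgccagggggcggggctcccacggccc

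The SRP72 stretch (chr4:56467454-56467573, plus strand) ended 43 bases before the gene's start, the AATF stretch (chr17:36948875-36948934, plus strand) 19 bases before it, the SLC25A3 stretch (chr12:98593591-98593651, plus strand) 34 and the MLF2 stretch (chr12:6753173-6753233, minus strand) 31. Their fold enrichments were 10.0, 7.53, 4.08 and 3.76. Only the SLC25A3 peak had an adjusted p under 0.05, at 0.0251. In each of these 4 genes the narrow peak was the only one listed. The SRP72 stretch had 50.8% G and C, against 80.3% in MLF2.

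GGACT was searched on both strands of the 42 stretches inside windows, and 4 held it in the sense direction (9.52%) and 4 on the other strand. At the same places of all 35116 windows, a mean of 7.11% held it in the sense direction. Over whole windows of 300 bases the share was 25.3% in the sense direction and 44.2% on either strand. Besides MLF2, the motif was found in the 3 stretches below, shown with up to 12 bases on each side. The genes code for ERI3, a predicted exoribonuclease, GPC1, the cell surface proteoglycan glypican 1, and PAF1, a subunit of the PAF complex that accompanies RNA polymerase II.
ERI3: tcggtgtgttgtGGACTcgtggtgctggc
GPC1: gGGACTgcgctagcccgc
PAF1: tggttccgagccGGACTtcatttccccga

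These lie at chr1:44355226-44355254 on the minus strand, chr2:240435671-240435688 on the plus strand and chr19:39391142-39391170 on the minus strand. The PAF1 peak was enriched 5.44-fold (adjusted p 0.011) and the GPC1 peak 5.02-fold (adjusted p 0.00741). The ERI3 peak was listed at 1.97-fold (adjusted p 0.0933). A match to GGACT is a description of the letters and not a mapped m6A site.

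The spans came in steps. The narrowest peaks covered 60 bases and the median was 151 bases. A span of a whole multiple of 30 bases, or 1 base more, was held by 297 of 354 (83.9%), against 49.5% of the 5007 peaks of 201 to 1000 bases. The steps filled unevenly, with 24 peaks at 60 or 61 bases, 24 at 90 or 91, 49 at 120 or 121, 63 at 150 or 151 and 137 at 180 or 181. The plot of spans shows these steps running on beyond the limit. Only 3 peaks exceeded 181 bases, so few lay near the limit: RP1-261G23.7 (188 bases, fold enrichment 7.17), AC016999.2 (198 bases, 2.12) and CTB-39G8.3 (200 bases, 1.6). Just outside it were RP4-622L5.2 (204 bases, 1.25), the linker histone gene H1-4 (204 bases, 1.62) and RP11-403P17.6 (206 bases, 4.23). No narrow peak belonged to YTHDF1, YTHDF2, YTHDF3, METTL3 or METTL14, whose narrowest peaks ran from 659 bases in METTL14 to 33155 bases in YTHDF2.

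**Figure D1:**
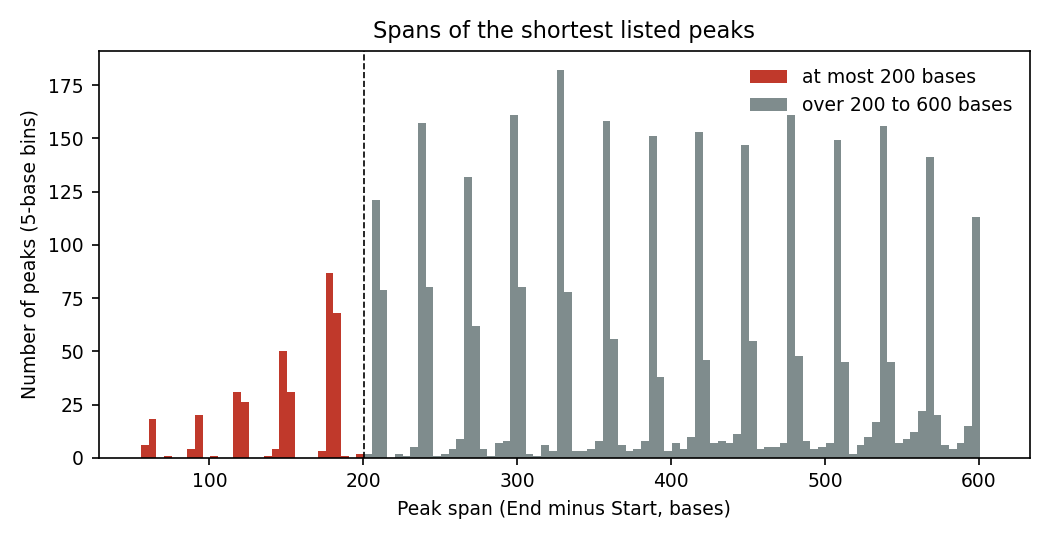
Number of listed peaks by span in bases, in bins of 5 bases, with peaks of at most 200 bases in red, wider peaks up to 600 bases in grey and the limit as a dashed line. Of the narrow peaks, 297 of 354 fall at steps of 30 bases, and the tallest step is at 180 or 181 (137 peaks).

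Narrow peaks had low fold enrichments. Their median was 2.51 (2.20 to 2.76, order-statistic 95% interval) with quartiles of 1.63 and 4.39, whereas all 18466 peaks had a median of 5.02 and those of 201 to 1000 bases 4.18. The values were closer to those of the neighbouring 838 peaks of up to 300 bases, which had a median of 2.78 (2.69 to 2.93), a fold enrichment of at least 5 in 26.4% and an adjusted p under 0.05 in 40.8%. None exceeded 10.0, while 16.7% of all peaks did, up to 87.8. A fold enrichment of at least 5 was listed for 72 narrow peaks (20.3%, 16.3 to 24.9), against a background of 53.4% of all peaks. An adjusted p under 0.05 was listed for 95 (26.8%, 22.3 to 31.8), against a background of 74.4%, and the median p was 0.0263 against 0.000724 over all peaks. Span, fold enrichment and p come from the same 2 libraries and the same caller, so these values describe the chosen peaks and were not tested. Within the 354, the median did not rise steadily with span: it was 1.96 for the 25 peaks of up to 75 bases, 1.82 for the 25 of up to 105, 2.2 for the 57 of up to 135, 2.76 for the 86 of up to 165 and 2.51 for the 161 of up to 200.

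High fold enrichment and a small adjusted p were mostly found in different narrow peaks. Of the 42 with a fold enrichment of 7.53 or more, 1 had an adjusted p under 0.05, TNRC6B. Of the 71 with a fold enrichment under 1.5, 28 did (39.4%, 28.0 to 51.8). Between these ends the share did not fall steadily. It was 26.1% of 138 peaks from 1.5 to under 3, 28.8% of 73 from 3 to under 5 and 13.9% of the 72 from 5 upward. In all, 64 of the 95 peaks with an adjusted p under 0.05 had a fold enrichment under 3. Low values were also common without it: the median was 1.96 for these 95 and 2.51 for the 259 at 0.05 or more. The listed adjusted p did not follow p alone. The peaks at 10.0 had a p of 0.00813 with an adjusted p of 0.0776. BIRC5, at 1.31, had a larger p of 0.00832 with an adjusted p of 0.0282, and TNRC6B 0.0132 with 0.0417. A peak with a high fold enrichment could thus miss the threshold at a p that passed it elsewhere. The plot of fold enrichment against adjusted p shows the right end of the narrow peaks below the threshold. Read counts behind these peaks were not used here, and whether a low input sets the high fold enrichments was not tested.

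**Figure D2:**
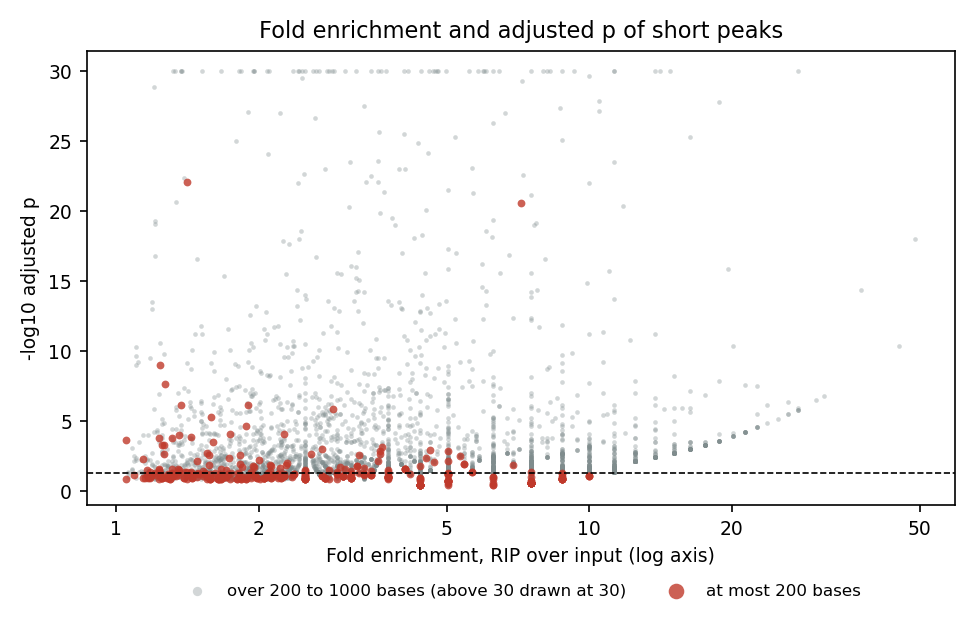
Fold enrichment of RIP over input (log axis) against -log10 of the adjusted p, for 354 narrow peaks in red and the peaks of 201 to 1000 bases in grey, with adjusted p of 0.05 as a dashed line and values above 30 drawn at 30. Red points end at a fold enrichment of 10.0, and those at 7.53 or more lie below the line except for TNRC6B.

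The narrow peaks with the largest fold enrichment, 10.0, were in 3 genes. ENOSF1 codes for a mitochondrial enzyme of the enolase superfamily (chr18:674012-674102, 91 bases), SLC35A1 for the Golgi transporter of activated sialic acid (chr6:87511950-87512128, 179 bases) and SRP72 is the gene whose sequence is shown above. All had the same p of 0.00813 and adjusted p of 0.0776. The SLC35A1 peak ended 208 bases short of the gene's 3' end and was its only peak. ENOSF1 had 3 further peaks that were wider, the best with a fold enrichment of 11.3.

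At 8.78 stood 12 peaks. SLC38A12, listed as TMEM104 and named as a member of an amino acid transporter family, had an adjusted p of 0.0501 in a peak at its start, and a wider peak of the gene reached 18.8. The potassium channel gene KCNQ5 had an adjusted p of 0.142 in a peak at its 5' end, and a wider peak of the gene had the same fold enrichment of 8.78. C19orf47 and ERMP1, which codes for a peptidase of the endoplasmic reticulum, also had an adjusted p of 0.142, and CIBAR1, a gene of cilium formation listed as FAM92A1, had 0.0912. The unmatched name AC005943.6 had 0.0912 too, in a region inside a peak of MBD3 on the other strand.

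The same values returned in many narrow peaks. They took 116 distinct fold enrichments, led by 7.53 in 27 peaks. In 23 of these the p of 0.0331 and the adjusted p of 0.254 were identical as well, and 599 peaks of any span had this combination. These 23 included AATF, the circadian transcription factor gene CLOCK, TCF7L2 of the Wnt pathway, MAP1B of microtubules, the intraflagellar transport gene IFT20 and the long noncoding RNA UCA1. A further 13 shared 4.39 with an adjusted p of 0.335, the largest among narrow peaks, in MACF1, NFIA and OSMR among others. Their p was 0.0457, and the same p stood with an adjusted p of 0.125 in SAE1, at 1.88. Whole multiples of 1.2545, the spacing that most peaks fit within rounding, were held by 96 narrow peaks (27.1%, 22.6 to 32.1) and by 50.3% of all peaks. Peaks with equal values cannot be ranked against each other.

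Sorted by p, a different set led. The 10 smallest p-values ran up to 1.41e-05, and 9 of the 10 fold enrichments were under 3. TUBB, a beta tubulin gene, had a fold enrichment of 1.27 with an adjusted p of 2.09e-08 (chr6:30723897-30724047). FKBP4, a partner of the chaperone HSP90, had 1.9 and 6.76e-07 near its 5' end, in its only peak (chr12:2794953-2795133). EEF1D, a subunit of the factor that reloads elongation factor 1A, had 1.59 and 5.37e-06 in a narrow peak beside 5 wider ones that reached 11.3. SLF2, a gene of DNA damage repair by the SMC5/6 complex, had 1.88 and 2.09e-05, and PABIR2, a gene of phosphatase regulation listed as FAM122B, 2.26 and 7.76e-05. Both had a wider peak with a larger fold enrichment, 8.78 and 10.0.

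The other 5 of these 10 lay inside or across a peak of another gene on the opposite strand. XXbac-BPG252P9.10 had the smallest p of all narrow peaks (3.98e-24, fold enrichment 1.41) and lay at chr6:30743446-30743592, within the region of IER3, an immediate early gene, whose peak had 1.81 and a p of 1.26e-48. RP1-261G23.7 followed (1.58e-22, fold enrichment 7.17) at chr6:43770429-43770616, inside the peak of the angiogenic factor gene VEGFA, which had 7.53 and a p of 1e-135. SNX22, a sorting nexin gene, had 1.24 opposite PPIB, which codes for cyclophilin B, at 1.1. BUD31, a splicing gene, had 2.87 opposite PTCD1 at 23.8. RP11-161H23.5 had 1.37 opposite the narrow peak of the alpha tubulin gene TUBA1C at 1.36. The strand setting of the authors' counting is not given in the sources used here, so reads of a gene and of its partner on the other strand cannot be told apart.

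Over all narrow peaks such overlaps were less frequent. A peak of another name overlapped 49 of them (13.8%, 10.4 to 17.9), against 18.2% of all peaks. In 40 the partner lay on the opposite strand (11.3%), against 14.2% of all peaks. The share was higher among the 26 narrow peaks whose names were not found in the reference, mostly clone names: 22 of these overlapped another name's peak (84.6%, 65.1 to 95.6), against 27 of the 328 with a matched name (8.23%, 5.50 to 11.8). The partners of unmatched names included KIF1C, a kinesin gene (2.93, where AC109333.10 had 2), USP16 (4.2, where RP1-100J12.1 had 2.38), and AGO2 on the same strand (1.61, where RP11-642A1.2 had 2.51). TUG1_1 and TUG1_4, at 3.76 and 2.51, lay within peaks of the long noncoding RNA TUG1 at 4.64 and 17.9. No gene is assigned to the unmatched names here, and their share of overlaps among peaks of any span was not examined.

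In 4 pairs both overlapping peaks were narrow, and the values within each pair were close. UFC1, the conjugating enzyme of the UFM1 modifier, and RP11-297K8.2 both had 7.53. The splicing factor gene SRSF2 had 1.25 and MFSD11 on the other strand 1.26. The UFC1 and MFSD11 peaks lay before the start of their own reference gene, and the MFSD11 peak lay within the SRSF2 gene. SYNJ2BP and its read-through SYNJ2BP-COX16, on the same strand, both had 3.35. TUBA1C and RP11-161H23.5, given above, made up the other pair. These 8 listed peaks therefore stand on 4 stretches of genome.

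Along the gene, narrow peaks were concentrated at the ends. In genes longer than 10000 bases, 141 of 257 (54.9%, 48.6 to 61.1) had their midpoint in the 10% of the gene nearest the 3' end and 43 (16.7%, 12.4 to 21.9) in the 10% nearest the 5' end. Peaks of 201 to 1000 bases had 62.2% (60.6 to 63.8) and 11% (10.0 to 12%) there. The middle 80% of the gene held 28.4% of narrow peaks and 26.8% of the others. The 43 nearest the 5' end had a median fold enrichment of 3.01 (1.99 to 4.39) and the 141 nearest the 3' end 2.26 (1.96 to 2.51), with 32.6% and 19.9% at an adjusted p under 0.05. The intervals of these 2 medians overlap, and no test of the difference was made. Position was measured over the genomic gene with introns, so it does not tell exon from intron or coding from untranslated sequence. The midpoint of 21 of the 328 narrow peaks with a matched name lay outside the reference gene, and these are not in the shares.

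**Figure D3:**
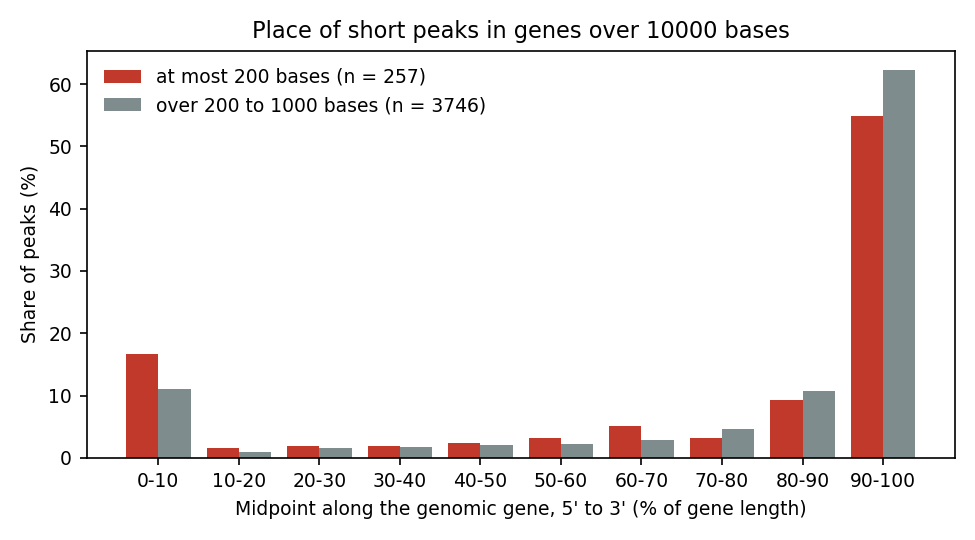
Share of peaks (%) by the place of their midpoint along the genomic gene, from 5' to 3' in steps of 10% of its length, in genes over 10000 bases, for 257 narrow peaks in red and 3746 peaks of 201 to 1000 bases in grey. The 10% nearest the 3' end holds 54.9% and 62.2%, and the 10% nearest the 5' end 16.7% and 11%.

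Of the 10 narrow peaks with both a fold enrichment of at least 5 and an adjusted p under 0.05, 9 had a matched gene. In 5 of these 9 (55.6%, 21.2 to 86.3) the midpoint lay within the first 2% of the gene. Of the 307 narrow peaks with their midpoint inside a matched gene of any length, 43 lay there (14%, 10.3 to 18.4), and the difference was not tested. YWHAH, a 14-3-3 protein gene, had 5.65, PAF1 and the endosomal GTPase gene RAB5A 5.44 each, the vesicle fusion gene STX18 5.33, overlapping STX18-AS1, and GPC1 5.02. Their adjusted p ran from 0.00288 in STX18 to 0.0417 in YWHAH. TNRC6B, which codes for a partner of Argonaute in microRNA silencing, had 7.53, LPP of focal adhesions 6.90 and PIAS4, a ligase of the SUMO modifier, 5.65, and these 3 lay in the last 10% of the gene. PA2G4, a gene of growth control, had 5.02 at 20.8% of its length, and RP1-261G23.7 was given above. This set was read off after the values were seen. The 2% mark was not a planned setting, and the 43 peaks within it include the 5 named first here. MAP2K1, the kinase MEK1, had 3.64 with an adjusted p of 0.000661 across its start. RBMX at 1.95 (0.0151) and EIF2B4 at 4.08 (0.0251) also touched a promoter window of their own gene. Such contact was found for 42 of the 273 narrow peaks whose gene has a window (15.4%, 11.3 to 20.2) and for 11% (10.0 to 12.1) of peaks of 201 to 1000 bases. The median fold enrichment of the 42 was 3.7 (3.01 to 4.39).

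A wider peak of the same gene stood beside 226 of the 354 narrow peaks (63.8%, 58.6 to 68.9), and 122 (34.5%) were the only listed peak of their gene. Against the gene's best wider peak, the narrow peak was lower in 164 of the 226 (72.6%, 66.3 to 78.3), higher in 57 and equal in 5. The medians were 2.23 for narrow peaks and 4.24 for the best wider peaks. By ratio, the widest gaps below were in the actin regulator gene ABI2 (2.05 against 37.6), TOR1AIP2, a gene of the nuclear envelope (2.51 against 45.2), and LENG8 (1.4 against 25.1). In the other direction they were in HP1BP3, a heterochromatin protein gene (7.53 against 1.32), TOE1, which trims RNA ends (7.53 against 2.34), and UBXN7 (3.76 against 1.25). Of these 6 narrow peaks, only that of LENG8 had an adjusted p under 0.05 (0.0437). The plot of narrow against wider peaks shows most points below the line of equal values. Taking the best of several wider peaks raises that side. Where no wider peak was listed, the median was 2.9 (2.37 to 3.23) over 128 narrow peaks, and 28.1% had an adjusted p under 0.05.

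**Figure D4:**
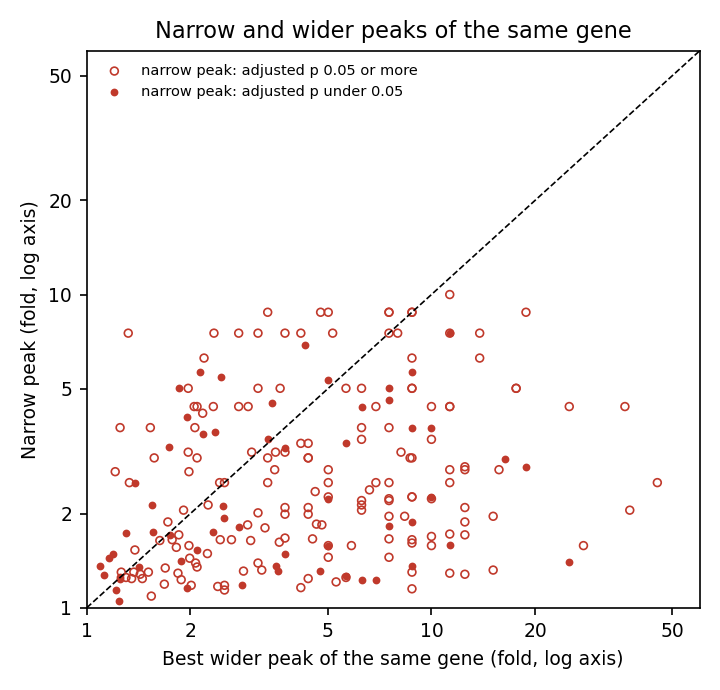
Fold enrichment of a narrow peak against that of the best wider peak of the same gene, for 226 narrow peaks on log axes, filled where the narrow peak's adjusted p is under 0.05, with the line of equal values dashed. The narrow peak is lower in 164 and higher in 57.

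Most genes had 1 narrow peak, 6 had 2 and SFT2D2 had 3. SFT2D2, a gene of vesicle transport, had 7 peaks in all over 1 gene on chromosome 1. Its narrow peaks lay at chr1:168225950-168226100 across the gene's start (5.02, adjusted p 0.0631), at chr1:168243278-168243458 (1.25, adjusted p 0.123) and at chr1:168244237-168244387 (3.35, adjusted p 0.0234). Its 4 wider peaks had values of 1.52, 5.65, 2.67 and 3.11, and the one at 3.11 carried the smallest p in this gene, 3.16e-22. The values thus did not follow the order along the gene. Genes with 2 were BBS10 (2.2 and 1.93), APMAP (1.3 and 1.21), XPO7 (2.23 and 1.82), TRIM44 (1.61 and 1.15), POLR1F, listed as TWISTNB (2.01 and 1.39), and ERMP1 (8.78 and 2.51). None of these 12 peaks had an adjusted p under 0.05. BBS10, APMAP and XPO7 had no wider peak.

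The peaks of the smallest span, 60 bases, were in 6 genes. NPM1, a nucleolar chaperone gene, had 2.13 with an adjusted p of 0.0148 and reached the gene's 3' end (chr5:171410868-171410927). The proteasome receptor gene ADRM1 had 2.17 (0.0832), AATF 7.53 (0.254), WWTR1-AS1, an RNA antisense to the Hippo effector gene WWTR1 whose peak lay outside the reference gene, 4.39 (0.335), CDK2AP2 1.8 (0.128) and the initiation factor gene EIF2S3 1.74 (0.13). Among these 6, NPM1 alone had an adjusted p under 0.05. Tubulin, actin and NPM1 genes have close copies elsewhere in the genome, and how reads with several matches were placed is not given in the sources used here.

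By gene list, narrow peaks were spread thinly. Over all genes with a peak, 346 of 9268 (3.73%) had a narrow one, and the median fold enrichment was 2.51. Of the m6A machinery, 1 of 18 genes with a peak had a narrow one (5.56%), RBMX, which codes for a nuclear RNA-binding protein, at 1.95 with an adjusted p of 0.0151. Of the mitosis list it was 4 of 75 (5.33%), with a median of 1.66. AURKA, the kinase Aurora A, had 1.74 with an adjusted p of 8.32e-05, at chr20:56370464-56370643 near its 3' end, and BIRC5, survivin, 1.31 with 0.0282. PKMYT1, an inhibitory kinase of CDK1, had 2.26 (0.0776), and the phosphatase gene CDC25B 1.58 (0.131). AURKA's wider peaks had 2.33 and 1.57, so its narrow peak lay between them.

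Translation factors had a narrow peak in 4 of 25 genes with a peak (16.0%), 2 of them with an adjusted p under 0.05. EIF2B4, a subunit of the exchange factor for eIF2, had 4.08 (0.0251) and EEF1D 1.59, given above. The termination factor gene GSPT1 had 5.02 (0.202) and EIF2S3 1.74 (0.13). Chromatin regulators had 3 of 60 (5.00%): BRD7 at 3.14 (0.0776), ASXL2 at 2.82 (0.129) and SUZ12, a Polycomb subunit, at 1.31 (0.0501), none of them under 0.05. The zinc finger family had 7 of 457 (1.53%) with a median of 4.6. Of these, ZNF664 and ZNF814 stood at 6.27, the latter in a peak that lay outside the reference gene and inside a peak of ZNF587 on the other strand (20.1), ZNF75A at 5.02, and ZNF566 at 4.6 with an adjusted p of 0.0011, the only 1 of the 7 under 0.05. The ZNF566 narrow peak lay inside a wider ZNF566 peak on the same strand (43189 bases, 7.53), so it is not a separate region. Squamous epithelium genes had 1 of 25 (4.0%), ITGB4, the beta 4 integrin of hemidesmosomes, at 4.18 (0.0562). None of the 11 cytosolic ribosomal protein genes with a peak had a narrow one. With 7 narrow peaks or fewer per list, these shares rest on few regions, and no list is set apart from the others by a test.

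Further genes were read off the narrow peaks after their values were seen, and are given as examples with their values, not as complete groups. The alpha tubulin gene TUBA1C had 1.36 (9.55e-05) and the actin gene ACTG1 1.05 (0.000209). The value of ACTG1 was the lowest among narrow peaks, shared with HNRNPH2. Among chaperone genes, HSPH1 had 1.83 (0.0107), HYOU1 2.05 (0.115), DNAJA3 1.25 (0.116) and CCT5 5.02 (0.202).

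SRP19 and SRP72, both of the signal recognition particle, had 4.52 (0.00407) and 10.0 (0.0776). Of the genes for enzymes that load transfer RNA, GARS1 had 7.53 (0.0912) and VARS1 1.44 (0.0871). In the mitochondrial ribosome, MRPS17 had 1.56 (0.002) and MRPL9 1.85 (0.02), while MRPL49 had 1.48 (0.0955) and MRPL21 4.39 (0.335). AGO1, an Argonaute gene, had 3.01 (0.0776) beside TNRC6B at 7.53 (0.0417). In TGF-beta and BMP signalling, BMPR1A had 6.27 (0.335), TGFBR2 2.26 (0.0617), PMEPA1 1.69 (0.103) and SMAD2 1.19 (0.0692).

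Of the 328 narrow peaks with a matched name, 321 were in protein-coding genes and 7 in long noncoding RNA genes. UCA1, a long noncoding RNA studied in several carcinomas, had 7.53 (0.254) over 75 bases. WWTR1-AS1 had 4.39 (0.335), RBM12B-AS1 3.14 (0.106) opposite RBM12B, and SNHG20 2.76 (0.119). NUTM2B-AS1 had 2.93 with an adjusted p of 0.0417. The median genomic length of genes with a narrow peak was 36722.5 bases, against 33152 bases for all genes with a peak that were found in the reference, and the median number of peaks per gene was 2 in both.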

How the data were processed

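The titles mark 1 RIP and 1 input library of KYSE30 cells. RNA of both, per the labels' protocols, was fragmented, copied with random hexamers and sequenced as pairs of 150-base reads from libraries of about 300 bases, with molecular identifiers for removing duplicates. The build is hg38, per the submitters' processing notes. The sources used here do not give the caller, annotation, thresholds or strand setting. The authors deposited 1 peak list. Per the file headers its values are fold enrichments (ratios of RIP to input), a p-value and an adjusted p-value on a linear scale, and a score that repeats the p-value rounded. Equal p-values could carry different adjusted p-values, and the adjusted p was used as listed. Narrow peaks had p up to 0.049. Members and lists were chosen with earlier results of these data known.

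Span is end minus start. Starts were counted from 0, since 786 lay 1 below the start of a matched gene and 68 equalled it; starts are printed counted from 1. The list's length column is end minus start plus 1 for all 18466 peaks, as for starts counted from 1. In that case each printed peak start is 1 base too high. The SRP72, AATF, SLC25A3 and GPC1 sequences, on the plus strand, would then lack their first base. MLF2, on the minus strand, would lack its last base, and the ERI3 and PAF1 stretches would not change. Names were matched to RefSeq genes (GRCh38.p14) by symbol (309 narrow peaks) or older symbol (19), on the same chromosome within 100000 bases, and 26 stayed unmatched. Sequences are RefSeq's. Shares have exact Clopper-Pearson 95% intervals, medians order-statistic intervals. Positions and intervals were tested on simulated data. Python 3.11.15, pandas 2.3.3 and scipy 1.17.1 were used. Named were the 10 largest fold enrichments, the 10 smallest p, the 5 smallest spans, genes with 3 or more narrow peaks, the 3 peaks on each side of the limit, the 3 leading peaks of each list, the 5 leading noncoding genes and YTHDF1, YTHDF2, YTHDF3, METTL3 and METTL14 (equal values ordered by p, then symbol); other names were chosen after their values were seen, and some named by the rule or seen later are not reported here. The rule allowed up to 12 sequences of peaks wholly inside a promoter window, and only 4 of the 8 are printed whole. Alternatives changed the span limit, the adjusted p, overlap, gene length and tolerance.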

Additional observations from a re-analysis of the deposited data

How the results depend on the processing

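The number of narrow peaks was 354 and became 162 with a limit of 150 bases, 1192 with 300 bases and 95 with an adjusted p under 0.05. The latter setting moved the median fold enrichment from 2.51 to 1.96, the share nearest the 3' end from 54.9% to 46.7%, that nearest the 5' end from 16.7% to 23.3% and the share with a wider peak in the same gene from 63.8% to 54.7%. The limit of 300 bases moved the share with an adjusted p under 0.05 from 26.8% to 36.7%. Counting a midpoint within 1000 bases of the gene's 3' end gave 22.2% in place of 54.9%, by a stricter definition. The cause of the other shifts was not tested, except that fewer peaks enter at an adjusted p under 0.05. Of 21 alternative values, 12 stayed within the main interval, or within 1.5 times for the count. No paired analysis was possible because there was 1 library of each kind, which also leaves no replicate to leave out. Depth is unknown, so a low input behind a fold enrichment cannot be told from a high one.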
